A study of Mus musculus with 24 samples.

Results

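Cell density was the only labelled difference between the 2 groups compared here, the empty vector NIH 3T3 cells collected after 48 h of confluence (EV, 3 libraries) and the empty vector NIH 3T3 cells titled sub-confluent (EVsub, 3 libraries). The 6 libraries were chosen by their titles from the 24 RNA-Seq libraries of the series, which fall into 8 groups of 3. NIH 3T3 is an immortalized line of mouse embryonic fibroblasts. By the study's methods the empty vector line was made in triplicate by retroviral transduction of pBabeNeo and drug selection, which gives pools of cells and not clones. The methods do not describe EVsub separately, so that its vector is known from the titles alone, and whether its replicates came from the same transduced lines as those of EV is not stated. The p-values of genes therefore measure a spread between replicates, which may in part be technical. That spread was pooled over all 8 groups, fitted together, and was not taken from EV and EVsub alone. Lines carrying TFE3, YAP-TFE3 or TAZ-CAMTA1, which are not compared here, thus also helped to set it. A fit of EV and EVsub alone is given below as an alternative. The growth protocol in the labels names CAMTA1, and not EVsub, as the group collected below confluence, so the density of EVsub rests on its titles, and no cell count or percentage of confluence came with either group. A gene was a member when its counts averaged 5 or more across the 24 libraries, and 14361 genes did.

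Fibroblasts of this line are the classical example of contact inhibition of growth. They divide while the culture is sparse and leave the cell cycle when neighbours touch on all sides. The Hippo pathway is one of the routes by which contact is sensed, since its LATS kinases phosphorylate the coactivators YAP and TAZ in dense cultures and keep them out of the nucleus, where they would otherwise join the TEAD transcription factors. A resting fibroblast is also known to turn from growth towards the production and upkeep of extracellular matrix.

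The libraries held 19981310 to 22419096 counts in EV and 20198078 to 28020955 in EVsub. All 10 fibroblast markers were present at 1 CPM, a count scaled to the size of its library, or more in all 6 libraries, and their summed level was 36300 to 40100 CPM in EV and 25000 to 38200 CPM in EVsub. The lists of the 5 other cell types were low. The 8 macrophage markers summed to 6.25 to 7.92 CPM in EV and 8.01 to 9.39 CPM in EVsub with Adgre1 and Tyrobp at 0, the 7 endothelial markers to 3.01 to 5 and 0.82 to 1 CPM with Cldn5 at 0, and the 7 epithelial markers to 0.31 to 0.59 and 0.319 to 0.605 CPM with Epcam at 0. The 6 adipocyte markers summed to 0.507 to 2.01 and 2.10 to 3.17 CPM with Plin1 and Lep at 0, and the 7 skeletal muscle markers to 0.191 to 0.296 and 0.865 to 0.930 CPM with Myod1, Myog and Myf5 at 0. Mitochondrially encoded genes took 3.96% ± 0.152 (SD, n = 3) of the counts in EV and 3.04% ± 0.248 (SD, n = 3) in EVsub, a difference of p = 0.1 by the exact two-sided permutation test, which is the smallest p that 3 against 3 libraries can give. Whether that share moved the values of other genes was not tested. In bulk RNA a smaller number of cells with a transcript and less of the transcript in each cell cannot be told apart.

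A pair of libraries stood apart from the others of their group. On the first principal component of the 500 most variable genes, which held 83.3% of the variance of the 6 libraries, EV lay at -20.31, -12.57 and -20.63 and EVsub at 24.30, 24.42 and 4.78. EVsub replicate 3 was thus the nearest of the EVsub libraries to EV, and EV replicate 2 the nearest of the EV libraries to EVsub. The counts that lead each section are therefore given with and without EVsub replicate 3.

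Of the 14361 genes, 1796 were higher in EVsub (12.5%) and 1377 were lower (9.59%) at an adjusted p under 0.05 in edgeR's quasi-likelihood test, 22.1% in either direction. Without EVsub replicate 3 the same test called 2109 genes higher (14.7%) and 1559 lower (10.9%). A log2 fold change of at least 1 was found for 580 of the higher and 381 of the lower genes, and the median log2 fold change over all tested genes was 0.02. In 2754 genes (19.2%) every EVsub library lay above every EV library and in 2400 (16.7%) every EVsub library lay below. The number of calls rested on single libraries and on the other groups of the series: 1971 genes were called without EV replicate 3 and 2098 without EVsub replicate 2, and 1683 were called when EV and EVsub alone were fitted, which leaves 4 residual degrees of freedom.

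**Figure D1:**
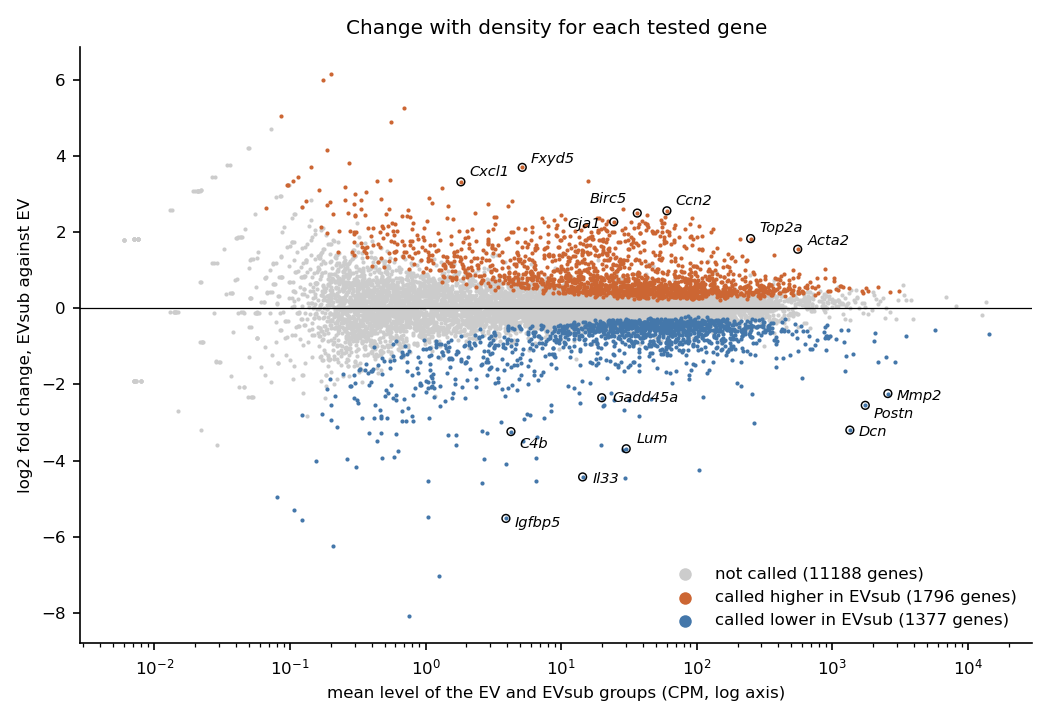
Log2 fold change of EVsub against EV (vertical axis) against the mean of the group levels in CPM (horizontal log axis) for each of the 14361 tested genes, with called genes in colour and 15 named genes circled. The 1796 higher and 1377 lower genes span the whole range of levels, and the largest falls among abundant genes belong to Dcn, Postn and Mmp2.

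Among called genes that averaged 50 counts or more and whose groups did not overlap, the largest rise was that of Fxyd5, an auxiliary subunit of the sodium pump that weakens cell adhesion (ENSMUSG00000009687, chr7:31032722-31042481 in GRCm38). It was measured at 0.591, 1.10 and 0.531 CPM in EV and 13.3, 8.44 and 7.02 CPM in EVsub, a log2 fold change of 3.70 (SE 0.34, adjusted p = 5.43e-07). No library of EVsub reached down to the EV range. Other genes among the 12 largest rises were Dock8, Dlk2, Diras2, Ptgs2, Ccn2, Birc5, Plk1, Cdc25c, Ripor2 and Kif20a, with log2 fold changes between 2.40 and 2.82. Birc5, Plk1, Cdc25c and Kif20a act in mitosis, Ptgs2 encodes the inducible cyclooxygenase, and Ccn2 is a matricellular growth factor.

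The largest falls exceeded the largest rises in size. Igfbp5, a secreted binding protein of the insulin-like growth factors (ENSMUSG00000026185, chr1:72857932-72874884), went from 4.35, 12.3 and 6.42 CPM in EV to 0, 0.356 and 0.0845 CPM in EVsub (log2 fold change -5.52, SE 0.59, adjusted p = 2.51e-06). Il33, a nuclear cytokine of stromal cells, was measured at 30, 20.8 and 32 CPM in EV and 0.137, 2.17 and 1.39 CPM in EVsub, a log2 fold change of -4.43 (SE 0.53, adjusted p = 9.55e-06). Igfbp5 thus stayed under 1 CPM in all EVsub libraries, whereas Il33 exceeded 1 CPM in EVsub replicates 2 and 3. Dpt, the matrix protein dermatopontin, fell from 89.9, 339 and 161 CPM to 3.74, 10.3 and 17.0 CPM (log2 fold change -4.24, SE 0.52, adjusted p = 1.27e-05), and Apod, a secreted lipocalin known from growth-arrested fibroblasts, from 54.5, 42.4 and 72.6 CPM to 1.18, 1.21 and 5.37 CPM (log2 fold change -4.46, SE 0.51, adjusted p = 5.51e-06). The other members of the 12 largest falls were Dmrtc1c1, Trim63, Mlana, Wfdc18, Dmrtc1c2, Ces1a, Lum and Scg2, between -4.60 and -3.58. Dmrtc1c1 and Dmrtc1c2 are near-identical copies on the X chromosome, and reads could have been split between them. Of the 828 tested processed pseudogenes 64 were called higher (7.73%) and 10 lower (1.21%), against 1677 (13.6%) and 1304 (10.6%) of 12321 protein coding genes, and these pseudogenes can likewise take reads of their parent genes.

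**Figure D2:**
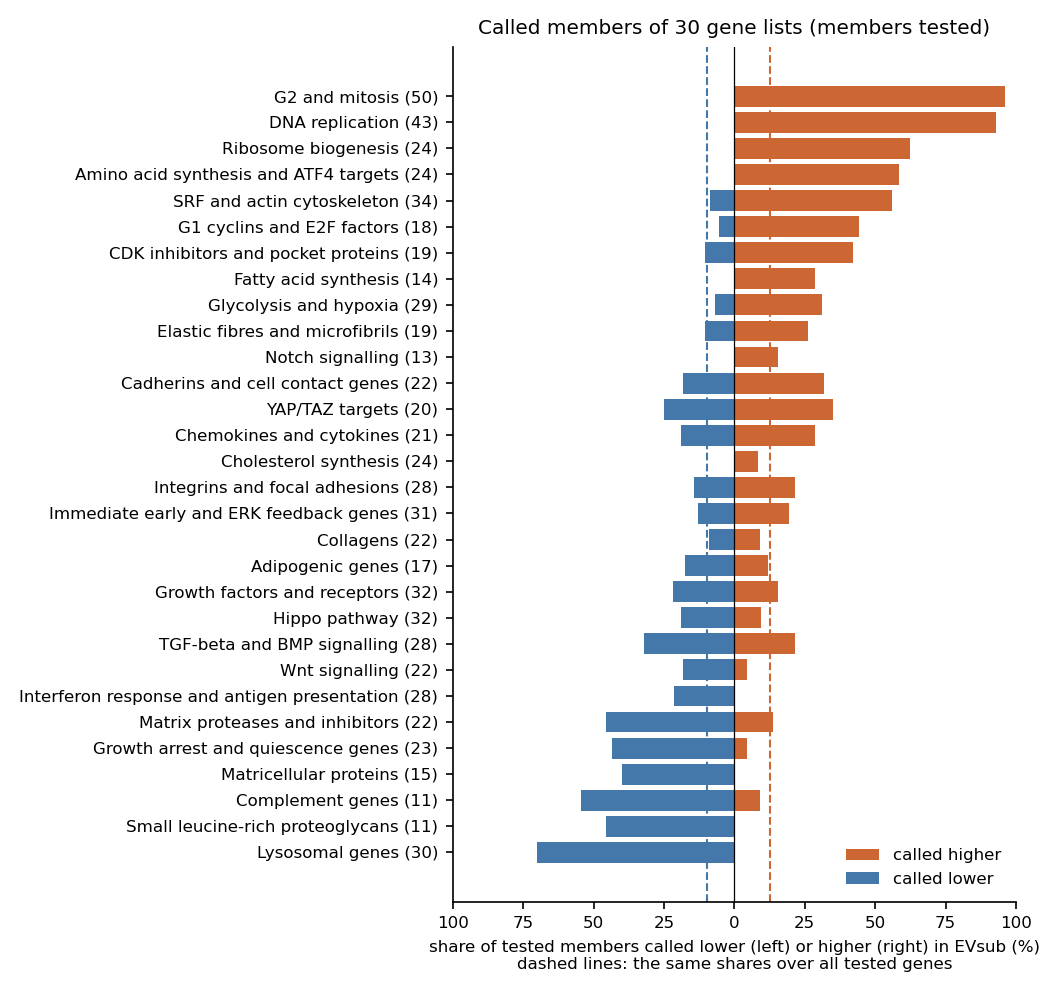
Share of the tested members of 30 gene lists that were called lower (bars to the left) or higher (bars to the right) in EVsub, in percent, with the number of tested members in brackets and dashed lines at the shares over all tested genes (9.59% and 12.5%). The mitotic and DNA replication lists have the highest shares of rises and the lysosomal list the highest share of falls.

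The genes of cell division moved together. Of 50 genes of G2 and mitosis, 48 were higher in EVsub and none lower, with a median log2 fold change of 1.93, and all 50 were called higher without EVsub replicate 3. The 2 that did not pass the test, the condensin genes Smc4 and Smc2, had log2 fold changes of 0.94 (adjusted p = 0.0587) and 1.11 (adjusted p = 0.0656). Plk1, the polo-like kinase of mitotic entry and exit (ENSMUSG00000030867, chr7:122159439-122169873), stood at 10.1, 19.7 and 10.1 CPM in EV and 59.6, 127 and 31.6 CPM in EVsub (log2 fold change 2.46, SE 0.38, adjusted p = 9.84e-05). Top2a, the topoisomerase that untangles sister chromatids, stood at 70.0, 183 and 75.9 CPM in EV and 449, 536 and 186 CPM in EVsub (log2 fold change 1.83, SE 0.41, adjusted p = 0.0025). In both genes EVsub replicate 3 was the lowest of the EVsub libraries and EV replicate 2 the highest of EV, and for Top2a these libraries nearly met. Ccnb1, the mitotic cyclin, rose by 2.23 on the log2 scale (adjusted p = 8.47e-05), its kinase Cdk1 by 1.65 (adjusted p = 0.000379), and Birc5, the survivin subunit of the chromosomal passenger complex, by 2.50 (adjusted p = 5.31e-05). Mki67, the usual proliferation marker, rose by 1.82 (adjusted p = 0.00992) from 61.9, 147 and 66.4 CPM to 376, 444 and 152 CPM, but lost its call when EV replicate 1, EV replicate 3 or EVsub replicate 2 was left out, with adjusted p up to 0.0582.

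DNA replication genes had a smaller median change. Of 43 members, 40 were called higher and none lower (median log2 fold change 0.99), 42 without EVsub replicate 3 and 22 when the 2 groups alone were fitted. The libraries of EV and EVsub did not overlap in 22 of the 43, against 44 of the 50 mitotic genes. Mcm5, a subunit of the replicative helicase, was measured at 23.3, 46.8 and 25.4 CPM in EV and 110, 185 and 52.2 CPM in EVsub (log2 fold change 1.86, SE 0.35, adjusted p = 0.000655). Tk1, the thymidine kinase of the S phase salvage pathway, was measured at 10.7, 21.4 and 11.7 CPM in EV and 57.8, 119 and 27.6 CPM in EVsub (log2 fold change 2.23, SE 0.35, adjusted p = 0.000138). EVsub replicate 3 came within a narrow margin of EV replicate 2 in both. The replication factor Mcm10 (log2 fold change 1.82, adjusted p = 0.00124) and the ribonucleotide reductase subunit Rrm2 (1.75, adjusted p = 0.00228) were called although EVsub replicate 3 lay below EV replicate 2. The levels in these libraries were 13.1 against 13.6 CPM for Mcm10 and 39.0 against 43.1 CPM for Rrm2. Pcna, the sliding clamp, rose by 0.80 (adjusted p = 0.00652), and its call was lost without EVsub replicate 2 and when the 2 groups alone were fitted (adjusted p up to 0.0699).

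The list of 18 G1 cyclins and E2F factors held 8 rises and 1 fall (9 and 0 without EVsub replicate 3, and 5 rises without EV replicate 1, EV replicate 3, EVsub replicate 1 or EVsub replicate 2). The rises included the repressive E2F factors E2f7 (log2 fold change 1.82, adjusted p = 0.0016) and E2f8 (1.86, adjusted p = 0.000735), whereas E2f1, the activating founder of the family, was not called at 0.12 (adjusted p = 0.6), with 44.5, 53.4 and 49.3 CPM in EV and 51.6, 66.1 and 42.4 CPM in EVsub. Myc, a driver of growth and cell cycle entry, was measured at 43.1, 57.7 and 52.7 CPM in EV and 109, 117 and 79.3 CPM in EVsub (log2 fold change 0.99, SE 0.15, adjusted p = 0.000113). Ccnd1, the cyclin D1 gene, was measured at 38.3, 78.9 and 46.3 CPM in EV and 141, 155 and 76.1 CPM in EVsub. Its groups overlapped, and its call (log2 fold change 1.19, adjusted p = 0.0192) was lost without any of EV replicate 1, EV replicate 3, EVsub replicate 1 and EVsub replicate 2, with adjusted p up to 0.0986. Ccne1 was not called (0.71, adjusted p = 0.0922).

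The promoters of these co-varying genes were searched for short sequences that textbooks connect with cell cycle transcription, on both strands of the RefSeq windows of GRCm38.p6 that run from 250 bases before to 50 bases after each start. The letters of the cell cycle homology region, TTTGAA, lay in 29 of the 41 tested mitotic genes with a window (70.7%), against 17.9% of all 32851 windows and 14.2% of the 10202 tested genes with a window. Over the genes called higher the share was 19.5%, over those called lower 12.8% and over those not called 13.5%. In 35 DNA replication genes with a window the E2F letters TTTGGCGC were found in 7 (20%, against 0.514% of all windows) and TTTCCCGC in 6 (17.1%, against 1.07%). Over the tested genes the shares were 1.05% for TTTGGCGC and 2.34% for TTTCCCGC, and over those called higher 1.54% and 3.73%. A match describes these letters in this window and does not show a bound site. In this and the later searches the lists were drawn up by hand, so their shares rest in part on the choice of members. The 6 windows below, which run from 160 bases before to 20 bases after the start and were picked after the values were seen because a match lay inside them, show the mitotic genes Cdc20 (chr4:118437324-118437503, minus strand), Cdk1 (chr10:69352893-69353072, minus strand), Kif23 (chr9:61946780-61946959, minus strand) and Ube2c (chr2:164769769-164769948, plus strand) with TTTGAA or its complement TTCAAA in capitals, and the replication genes Mcm5 (chr8:75109349-75109528, plus strand) and Cdc6 (chr11:98907991-98908170, plus strand) with the E2F letters in capitals, which lie on the complementary strand in both.
Cdc20: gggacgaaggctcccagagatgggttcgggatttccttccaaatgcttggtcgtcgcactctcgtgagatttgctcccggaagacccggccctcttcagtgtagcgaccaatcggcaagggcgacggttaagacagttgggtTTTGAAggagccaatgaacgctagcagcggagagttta
Cdk1: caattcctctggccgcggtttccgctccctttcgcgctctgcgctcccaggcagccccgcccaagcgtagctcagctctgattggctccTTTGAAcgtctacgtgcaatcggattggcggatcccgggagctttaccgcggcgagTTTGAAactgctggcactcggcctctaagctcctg
Kif23: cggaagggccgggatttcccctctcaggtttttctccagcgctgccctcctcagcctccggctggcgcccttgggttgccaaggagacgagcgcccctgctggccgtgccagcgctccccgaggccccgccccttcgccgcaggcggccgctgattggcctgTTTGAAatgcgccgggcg
Ube2c: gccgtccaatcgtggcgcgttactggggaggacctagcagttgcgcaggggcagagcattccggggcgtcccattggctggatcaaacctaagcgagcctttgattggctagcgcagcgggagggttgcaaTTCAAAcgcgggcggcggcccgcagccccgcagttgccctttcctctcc
Mcm5: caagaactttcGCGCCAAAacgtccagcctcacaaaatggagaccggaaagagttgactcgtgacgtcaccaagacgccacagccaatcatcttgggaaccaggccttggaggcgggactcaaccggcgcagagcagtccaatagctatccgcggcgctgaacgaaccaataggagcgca
Cdc6: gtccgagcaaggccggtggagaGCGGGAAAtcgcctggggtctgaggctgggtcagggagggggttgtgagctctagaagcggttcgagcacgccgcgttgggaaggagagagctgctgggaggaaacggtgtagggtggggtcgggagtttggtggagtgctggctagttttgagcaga

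A match lay at position -18 in Cdc20, -15 in Cdk1 and 3 in Kif23, counting the start as 1 and the base before it as -1. In Ube2c it lay at -29. These 4 mitotic windows were picked for a match, so the positions do not describe the list, whose other members were not examined for position. Cdc20, the activator of the anaphase-promoting complex, rose from 23.4, 41.7 and 25.2 CPM to 133, 265 and 64.5 CPM (log2 fold change 2.36, SE 0.33, adjusted p = 4.44e-05). Ube2c, the ubiquitin-conjugating enzyme of the same complex, rose from 13.0, 28.4 and 13.2 CPM to 86.0, 148 and 40.1 CPM (2.33, SE 0.35, adjusted p = 8.02e-05). Cdc6, the licensing factor, stood at 3.67, 11.3 and 5.75 CPM in EV and 22.3, 27.7 and 9.43 CPM in EVsub, so that its groups overlapped through EV replicate 2 and EVsub replicate 3 (1.53, SE 0.38, adjusted p = 0.00542).

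**Figure D3:**
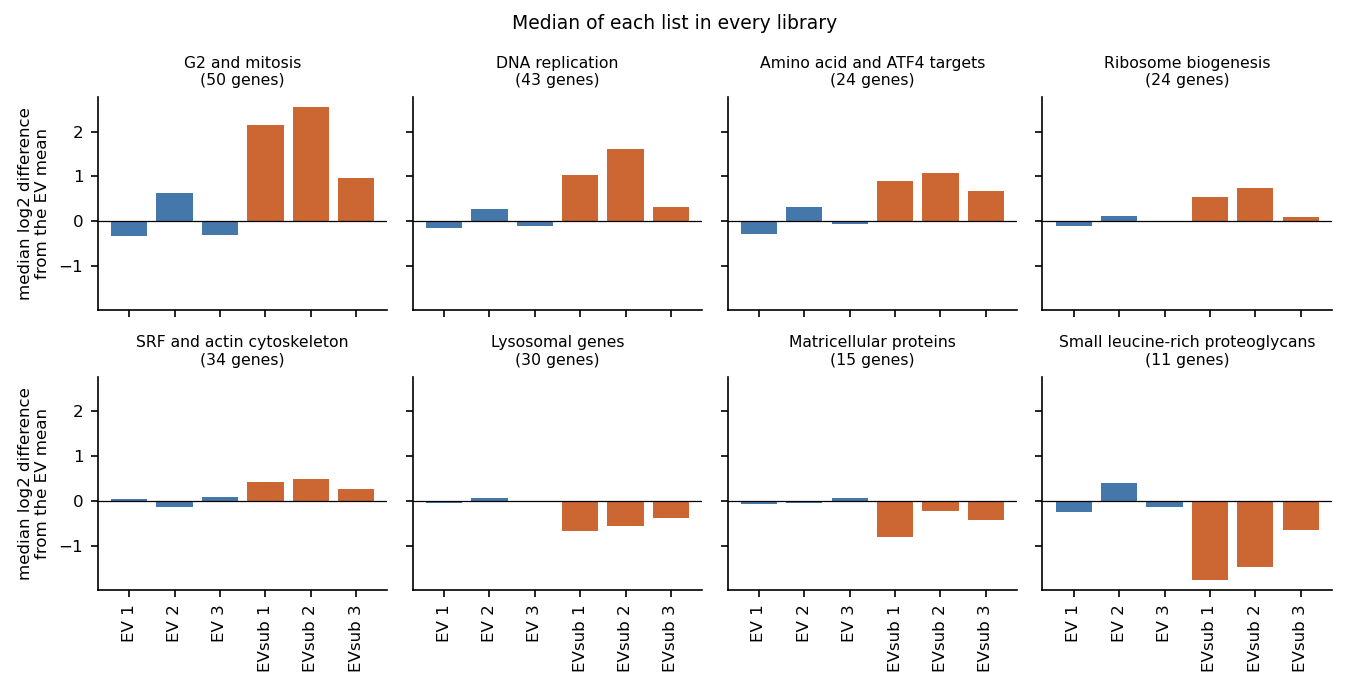
Median log2 difference from the EV mean over the tested members of 8 gene lists in each of the 6 libraries (vertical axis, log2 of CPM plus 0.1), with EV in blue and EVsub in orange. For the mitotic list the EVsub libraries reach 2.14, 2.55 and 0.97 while EV replicate 2 stands at 0.64, and the lysosomal and proteoglycan lists point downwards in all EVsub libraries.

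Inhibitors of the cell cycle did not move as 1 group. Of 19 cyclin-dependent kinase inhibitors, pocket proteins and antiproliferative genes, 8 were higher and 2 lower in EVsub, with the same counts without EVsub replicate 3 and with 3 rises without EV replicate 3 and 4 without EV replicate 1 or EVsub replicate 1. Rbl2, the pocket protein p130 of resting cells, stood at 64.9, 65.0 and 66.5 CPM in EV and 40.2, 40.7 and 48.7 CPM in EVsub (log2 fold change -0.60, SE 0.10, adjusted p = 0.000264). Its relative Rbl1, the p107 protein of cycling cells, stood at 14.6, 20.2 and 12.8 CPM in EV and 40.1, 42.2 and 21.6 CPM in EVsub (1.13, SE 0.26, adjusted p = 0.00386). The pocket proteins thus changed in opposite directions, without overlap between the groups in either gene. Ccng2, a cyclin of arrested cells, fell by 1.01 on the log2 scale (adjusted p = 0.000568), and Cdkn2d rose by 1.37 (adjusted p = 0.000596). Cdkn1b, the p27 inhibitor often studied in contact inhibition, was not called, at 101, 74.4 and 83.1 CPM in EV and 92.9, 80.5 and 107 CPM in EVsub (0.12, adjusted p = 0.554).

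Of 23 genes of growth arrest and quiescence, 10 fell and 1 rose, with a median of -0.51. Without EVsub replicate 3 there were 15 falls and 2 rises, and without EVsub replicate 1 there were 5 falls and without EV replicate 1 or with the 2 groups alone there were 6. The single rise was that of Klf2 (log2 fold change 0.95, adjusted p = 0.0233, up to 0.0977 over the alternatives), which was not called without EV replicate 1, EV replicate 2 or EVsub replicate 2. Dpt was the largest of the falls. Klf9, a transcription factor of differentiated cells, fell from 106, 114 and 119 CPM to 62.9, 48.3 and 68.9 CPM (log2 fold change -0.91, SE 0.14, adjusted p = 8.47e-05), and Sesn3, a stress-responsive target of FOXO factors, from 27.2, 23.4 and 24.5 CPM to 9.16, 10.9 and 16.7 CPM (-1.03, SE 0.20, adjusted p = 0.000968). Both fell in every EVsub library. The genes that gave the growth arrest-specific class its name were weaker: Gas1 was at -0.59 (adjusted p = 0.0388) and Gas6 at -0.80 (adjusted p = 0.0256), and each lost its call in 4 of the 6 fits that left out 1 library (adjusted p up to 0.146).

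Targets of YAP and TAZ were divided. On the list of 20 tested genes 7 were higher and 5 lower in EVsub, with a median log2 fold change of 0.20, and 8 were higher and 4 lower without EVsub replicate 3. Without EVsub replicate 1 the rises numbered 4, and the falls numbered 3 without EV replicate 3, EVsub replicate 1 or EVsub replicate 2. Fitting the 2 groups alone gave 4 rises and 3 falls. Ccn2, the connective tissue growth factor (ENSMUSG00000019997, chr10:24595442-24598683), was measured at 14.6, 18.3 and 19.9 CPM in EV and 143, 129 and 37.7 CPM in EVsub, a log2 fold change of 2.56 (SE 0.40, adjusted p = 0.000129). All EVsub libraries lay above EV, EVsub replicate 3 by the smallest margin. Ccn1, its relative in the CCN family, was measured at 42.9, 63.8 and 61.5 CPM in EV and 224, 203 and 57.6 CPM in EVsub (1.53, SE 0.37, adjusted p = 0.00482). EVsub replicate 3 lay inside the EV range for this gene, and its call was lost when the 2 groups alone were fitted (adjusted p up to 0.0522). Ankrd1, a nuclear ankyrin repeat protein, was measured at 15.7, 31.5 and 18.6 CPM in EV and 75.8, 39.3 and 44.5 CPM in EVsub (1.28, SE 0.31, adjusted p = 0.00549), and missed the call without EVsub replicate 1 (adjusted p = 0.0527). Amotl2, a junction protein that holds YAP back, rose by 0.64 (adjusted p = 0.00526).

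The falls on the same list reached -2.35. Gadd45a, a stress and DNA damage gene, was measured at 34.3, 27.3 and 38.5 CPM in EV and 3.83, 9.15 and 6.51 CPM in EVsub (log2 fold change -2.35, SE 0.23, adjusted p = 1.28e-06). Tgfb2, a TGF-beta ligand, was measured at 161, 93.8 and 152 CPM in EV and 29.8, 47.8 and 43.8 CPM in EVsub (-1.75, SE 0.21, adjusted p = 7.98e-06). F3, the coagulation tissue factor, fell by 1.22 on the log2 scale (adjusted p = 0.000128). The EV and EVsub libraries of these 3 genes did not overlap. Axl, a receptor kinase on the list, was not called (0.33, adjusted p = 0.0732), although every EVsub library lay above EV.

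The TEAD letters GGAATG, searched in the same way, were found in 7 of the 13 tested YAP and TAZ targets with a promoter window (53.8%), against 14.7% of all windows. The shares over all tested genes called higher, lower and not called were 15.8%, 16.7% and 14.2%. On the list the letters lay in 4 of the 5 targets called higher, none of the 4 called lower and 3 of the 4 not called, a description of 13 genes whose differences were not tested. The windows of Ankrd1 (chr19:36119825-36120004, minus strand) and Ccn1 (chr3:145649966-145650145, minus strand), the 2 targets with a match that rose the most, carry it at -123 and, on the complementary strand as CATTCC, at -103, in capitals.
Ankrd1: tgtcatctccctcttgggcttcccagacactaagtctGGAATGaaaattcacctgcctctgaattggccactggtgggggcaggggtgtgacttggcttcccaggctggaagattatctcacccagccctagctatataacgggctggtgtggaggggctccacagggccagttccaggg
Ccn1: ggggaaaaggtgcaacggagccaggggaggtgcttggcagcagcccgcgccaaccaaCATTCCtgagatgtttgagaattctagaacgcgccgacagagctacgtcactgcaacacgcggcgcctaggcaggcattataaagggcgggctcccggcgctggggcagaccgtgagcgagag

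Of 32 genes of the Hippo pathway's kinases, adaptors, coactivators and TEAD factors, 3 were higher (9.38%, against 12.5% of all tested genes) and 6 lower (18.8%, against 9.59%). In 12 of the 32 every EVsub library lay below EV, and DESeq2 called 9 lower. The counts were 3 and 7 without EVsub replicate 3, with 3 lower without EVsub replicate 1 and 2 lower when the 2 groups alone were fitted, and log2 fold changes lay between -0.67 and 1.08. Fat1, an atypical cadherin upstream of the pathway, rose from 92.6, 109 and 98.1 CPM to 205, 263 and 165 CPM (1.08, SE 0.20, adjusted p = 0.000475), and Amot, the angiomotin gene, fell from 276, 222 and 306 CPM to 160, 161 and 183 CPM (-0.67, SE 0.12, adjusted p = 0.000558). Yap1 was measured at 193, 170 and 189 CPM in EV and 137, 138 and 152 CPM in EVsub, a fall of 0.37 on the log2 scale (adjusted p = 0.003) that was not called when the 2 groups alone were fitted (adjusted p up to 0.109). Wwtr1, which encodes TAZ, was at -0.30 (adjusted p = 0.0185) and lost its call in 3 of the 6 fits without 1 library, those without EV replicate 3, EVsub replicate 1 and EVsub replicate 2 (adjusted p up to 0.164). Lats2 was not called (-0.29, adjusted p = 0.139).

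Immediate early genes gave no common direction, with 6 of 31 higher and 4 lower (8 and 3 without EVsub replicate 3, and 2 lower without EV replicate 1 or EVsub replicate 1). The shares were 19.4% and 12.9%, against 12.5% and 9.59% of all tested genes. Fosl1, the AP-1 subunit that follows sustained ERK activity, stood at 8.53, 18 and 10.9 CPM in EV and 37.8, 51.1 and 22.4 CPM in EVsub (log2 fold change 1.58, SE 0.31, adjusted p = 0.00102). Plaur, the urokinase receptor, stood at 5.45, 7.83 and 6.99 CPM in EV and 28.5, 27.4 and 13.7 CPM in EVsub (1.78, SE 0.25, adjusted p = 5.05e-05). Neither gene overlapped between the groups. The first responders Fos (-0.48, adjusted p = 0.477) and Egr1 (0.42, adjusted p = 0.485) were not called. Among 32 growth factors, receptors and binding proteins, 5 rose (15.6%) and 7 fell (21.9%), with 5 and 10 without EVsub replicate 3. Pdgfc, a PDGF ligand, rose from 13.4, 22.4 and 15.5 CPM to 47.5, 42.3 and 34.4 CPM (1.28, SE 0.15, adjusted p = 6.95e-06) and Igfbp7 by 1.40 (adjusted p = 0.000386). The receptor Pdgfrb fell by 0.59 (adjusted p = 0.00162). For Pdgfra, measured at 1210, 1190 and 1180 CPM in EV and 513, 563 and 1090 CPM in EVsub, EVsub replicate 3 stood close to EV and the gene was not called (-0.73, adjusted p = 0.0689).

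**Figure D4:**
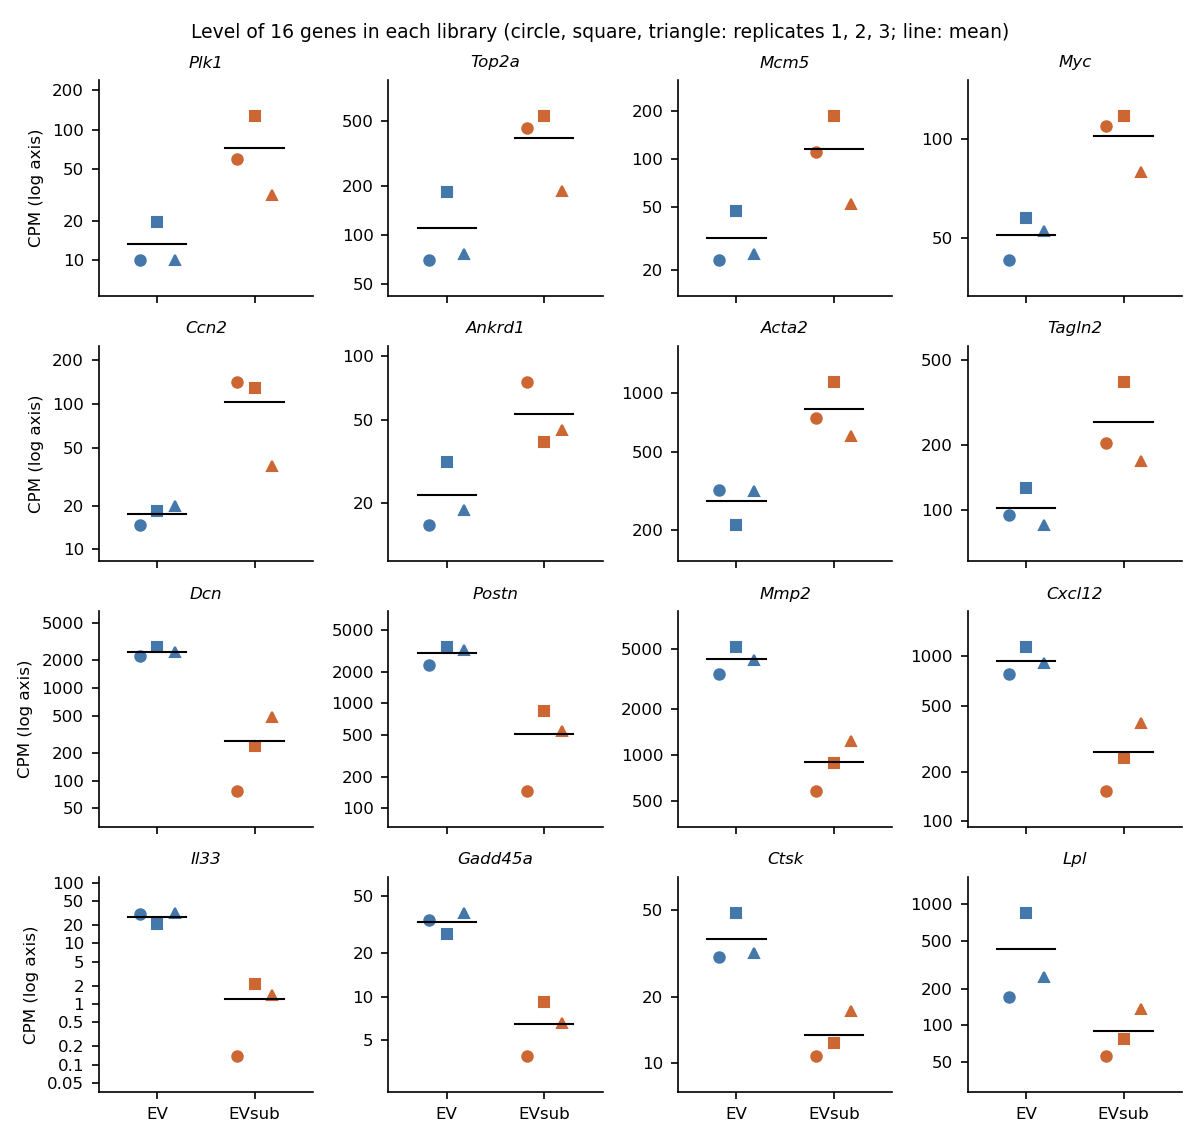
Level of 16 genes in CPM (vertical log axis, a separate scale for each gene) in the 3 EV libraries (blue) and the 3 EVsub libraries (orange), with circle, square and triangle for replicates 1, 2 and 3 and a line at the group mean. In the upper rows EVsub replicate 3 is the lowest EVsub point for all genes but Ankrd1, and in the lower rows no EVsub point reaches the EV points.

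On the list of contractile and cytoskeletal genes, many of them known targets of serum response factor, 19 of 34 members were higher and 3 lower (20 and 3 without EVsub replicate 3), with a median of 0.44, but 11 or 12 were higher when any of EV replicates 1, 2 and 3 or EVsub replicates 1 and 2 was left out and 8 when the 2 groups alone were fitted. Leaving out EV replicate 1, EV replicate 3, EVsub replicate 1 or EVsub replicate 2 left 1 fall. Acta2, smooth muscle actin and a marker of activated fibroblasts, was measured at 321, 212 and 317 CPM in EV and 745, 1140 and 600 CPM in EVsub (log2 fold change 1.55, SE 0.22, adjusted p = 5.74e-05). Tagln2, a transgelin, was measured at 94.8, 127 and 84.8 CPM in EV and 204, 396 and 169 CPM in EVsub (1.33, SE 0.22, adjusted p = 0.000177). Tpm2, a tropomyosin, rose by 0.99 (SE 0.11, adjusted p = 4.61e-06). These 3 genes separated the groups completely. Tagln itself rested on EVsub replicate 2, which stood at 167 CPM beside 67.1 and 65.8 CPM in the other EVsub libraries and 69.4, 35.4 and 66.5 CPM in EV, and its call (0.81, adjusted p = 0.0388) was lost without that library, without EV replicate 2 and without EV replicate 3 (adjusted p up to 0.574).

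Adhesion and junction genes changed in both directions. Of 28 integrin and focal adhesion genes 6 were higher and 4 lower (6 and 3 without EVsub replicate 3, 3 higher without EV replicate 1 or with the 2 groups alone, and 2 lower without EVsub replicate 2). These were 21.4% and 14.3% of the list, against 12.5% and 9.59% of all tested genes. Itga3, the laminin receptor subunit alpha 3, rose from 15.5, 15.6 and 16.6 CPM to 46.3, 33.1 and 33.1 CPM (log2 fold change 1.23, SE 0.23, adjusted p = 0.000685), whereas Itgb8 fell from 24.7, 23.0 and 23.8 CPM to 9.47, 6.23 and 11.4 CPM (-1.40, SE 0.25, adjusted p = 0.00034). The common fibronectin receptor subunits Itgb1 (-0.09, adjusted p = 0.617) and Itga5 (-0.06, adjusted p = 0.807) were not called. Of 22 cadherin and contact genes 7 were higher and 4 lower, with the same counts without EVsub replicate 3, 4 higher without EV replicate 3, and 3 higher and 2 lower when the 2 groups alone were fitted. Gja1, which encodes the gap junction protein connexin 43, was measured at 5.99, 13.3 and 5.97 CPM in EV and 48.1, 50.6 and 22.7 CPM in EVsub (2.27, SE 0.32, adjusted p = 4.5e-05). Its groups did not overlap, and the gap junction transcript was higher in the sub-confluent cells. N-cadherin, Cdh2, was not called (0.24, adjusted p = 0.288), and Ctnnb1, the beta-catenin gene, fell by 0.49 (adjusted p = 0.00168, and up to 0.0584 over the alternatives).

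The matrix program split by class. Small leucine-rich proteoglycans, which coat collagen fibrils, had 5 falls and no rise among 11 genes, with the same counts without EVsub replicate 3 and a median of -1.40. Dcn, decorin (ENSMUSG00000019929, chr10:97479609-97518143), was measured at 2180, 2730 and 2390 CPM in EV and 77.3, 236 and 482 CPM in EVsub (log2 fold change -3.20, SE 0.49, adjusted p = 9.04e-05). Lum, lumican, was measured at 46.6, 70.6 and 51.0 CPM in EV and 1.28, 2.74 and 9 CPM in EVsub (-3.69, SE 0.46, adjusted p = 1.52e-05). EVsub replicate 3 held the most of both transcripts among the EVsub libraries and still lay far under EV. Ogn, osteoglycin, was not called (-0.66, adjusted p = 0.342). Its EV libraries stood at 295, 683 and 377 CPM and those of EVsub at 327, 81.6 and 451 CPM, so that EVsub replicate 2 alone lay below EV. Collagens showed 2 rises and 2 falls among 22 genes (3 and 3 without EVsub replicate 3), a share near that of all genes. Col3a1, the type III fibrillar chain, fell from 2610, 4920 and 3050 CPM to 914, 1830 and 1620 CPM (-1.28, SE 0.32, adjusted p = 0.00567). Col1a1, the type I chain, was not called (0.60, adjusted p = 0.0939), with EVsub replicate 2 at 6070 CPM beside 2870 and 3170 CPM in the others. The rises of Col8a1 and Col7a1 were both lost without EV replicate 1, EV replicate 3, EVsub replicate 1 or EVsub replicate 2, with at least 10 counts in every library, with the replicate block and with the 2 groups alone (adjusted p up to 0.197 for Col8a1 and 0.178 for Col7a1), and that of Col7a1 also without EV replicate 2. The falls numbered 5 without EVsub replicate 2 and 1 without EV replicate 1 or EVsub replicate 1.

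Elastic fibre genes gave 5 rises and 2 falls of 19 (3 and 2 without EVsub replicate 3, 3 rises also without EV replicate 1 or EV replicate 3, and 1 fall without EV replicate 2, EV replicate 3 or EVsub replicate 1). Their shares were 26.3% and 10.5%, against 12.5% and 9.59% of all tested genes. The latent TGF-beta binding proteins Ltbp1 and Ltbp2 rose, Ltbp1 from 46.8, 36.3 and 42.3 CPM to 181, 156 and 105 CPM (log2 fold change 1.82, SE 0.18, adjusted p = 1.43e-06) and Ltbp2 by 1.72 (adjusted p = 7.69e-05), as did the crosslinking enzyme Loxl4 by 1.52 (adjusted p = 0.000109). Mfap4, a microfibril-associated glycoprotein, fell from 6.97, 11.1 and 10.6 CPM to 0.228, 0.392 and 1.94 CPM (-3.48, SE 0.53, adjusted p = 8.9e-05). Members of the class moved in opposite directions.

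Matrix proteases and their inhibitors leaned downwards, with 10 falls and 3 rises among 22 (10 and 2 without EVsub replicate 3, and 1 rise without EV replicate 1 or with the 2 groups alone). Mmp2, gelatinase A, was measured at 3430, 5120 and 4180 CPM in EV and 582, 884 and 1230 CPM in EVsub (log2 fold change -2.24, SE 0.25, adjusted p = 5.11e-06). Mmp11, stromelysin-3, fell from 121, 120 and 126 CPM to 38.9, 40.1 and 55.5 CPM (-1.45, SE 0.12, adjusted p = 3.02e-07). No library overlapped between the groups in either gene. Of the 15 tested genes on the list of matricellular proteins, 6 fell and none rose by the same test (6 and 1 without EVsub replicate 3). That list leaves out Ccn2 and Ccn1, which were counted among the YAP and TAZ targets and were called higher (2.56 and 1.53). Postn, periostin, was measured at 2320, 3430 and 3220 CPM in EV and 147, 841 and 549 CPM in EVsub (-2.55, SE 0.42, adjusted p = 0.000209), Spp1, osteopontin, fell by 1.64 (adjusted p = 0.00243) and Smoc2 by 1.41 (adjusted p = 0.00368). Sparc (0.14, adjusted p = 0.661) and Thbs1 (0.37, adjusted p = 0.418) were not called.

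On the list of amino acid synthesis genes and targets of ATF4, the transcription factor of the amino acid response, 14 of 24 members were higher, 10 were not called and none was lower (median 0.90, and 15 higher without EVsub replicate 3), and between 12 and 16 were higher when each library was left out in turn. Asns, asparagine synthetase, was measured at 70.6, 125 and 83.3 CPM in EV and 224, 342 and 181 CPM in EVsub (log2 fold change 1.42, SE 0.21, adjusted p = 6.29e-05). Psat1, an enzyme of serine synthesis, was measured at 133, 322 and 158 CPM in EV and 487, 762 and 367 CPM in EVsub (1.40, SE 0.27, adjusted p = 0.000761). Trib3, a pseudokinase induced by ATF4, rose by 1.74 (adjusted p = 0.000827). All EVsub libraries exceeded EV replicate 2, the highest EV library, in these 3 genes. Atf4 itself rose by 0.40 (adjusted p = 0.0177), a call lost without EV replicate 1 or EVsub replicate 2 (adjusted p up to 0.129). The letters TGATGCAA, a C/EBP-ATF site, lay in 6 of the 21 members with a promoter window (28.6%) against 0.895% of all windows. As the list was drawn up to hold ATF4 targets, that share rests in part on the choice of members and does not bear on density. Over tested genes it was 0.725%, and over those called higher, lower and not called 1.24%, 0.497% and 0.664%.

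Ribosome biogenesis genes had 15 rises among 24 and no fall (20 without EVsub replicate 3), with a median of 0.50. That count fell to 7 without EV replicate 1 or EV replicate 3, to 5 without EVsub replicate 2 and to 5 when the 2 groups alone were fitted. Dkc1, the pseudouridine synthase dyskerin, rose from 35.0, 51.7 and 38.8 CPM to 92.9, 95.9 and 57.0 CPM (log2 fold change 0.97, SE 0.23, adjusted p = 0.00408), and Wdr12, a factor of large subunit assembly, from 28.8, 29.6 and 29.3 CPM to 57.0, 62.0 and 41.6 CPM (0.87, SE 0.14, adjusted p = 0.000114). Ncl, nucleolin, was not called (0.44, adjusted p = 0.0711). Among 29 genes of glycolysis and hypoxia 9 rose and 2 fell (10 and 2 without EVsub replicate 3, 1 fall without EVsub replicate 1 or EVsub replicate 2, and 6 rises and 1 fall with the 2 groups alone). The glycolytic enzyme genes Pgk1 (0.91, adjusted p = 0.000968), Eno1 (0.89, adjusted p = 0.000473) and Ldha (0.85, adjusted p = 0.00206) were higher in every EVsub library than in any EV library. The first enzyme of the pathway, Hk2, fell from 70.0, 67.6 and 79.2 CPM to 47.6, 43.9 and 48.9 CPM (-0.63, SE 0.15, adjusted p = 0.00361).

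Lipid synthesis genes had small median changes, 0.30 for cholesterol and 0.24 for fatty acid synthesis. Of 24 cholesterol synthesis genes 2 were higher and none lower (1 without EVsub replicate 3, 1 also without EVsub replicate 2, and none without EV replicate 1, EV replicate 3 or EVsub replicate 1). The share called higher was 8.33% for cholesterol and 28.6% for fatty acid synthesis, against 12.5% of all tested genes. Of 14 fatty acid synthesis genes 4 were higher and none lower (3 without EVsub replicate 3, 2 without EV replicate 1 or EVsub replicate 1, and 1 without EV replicate 3 or with the 2 groups alone), and Fasn and Scd1 were not called (0.31 with adjusted p = 0.202, and 0.21 with adjusted p = 0.25). Me1, which supplies NADPH, rose by 0.62 (adjusted p = 0.0021).

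Of 30 lysosomal genes 21 were lower, 9 were not called and none was higher, with a median of -0.50, with the same count without EVsub replicate 3 and 12 without EVsub replicate 1. All 30 had a negative log2 fold change, and in 27 every EVsub library lay under every EV library. Ctsk, the collagen-degrading cathepsin K, was measured at 30.5, 48.5 and 31.7 CPM in EV and 10.7, 12.3 and 17.3 CPM in EVsub (log2 fold change -1.46, SE 0.18, adjusted p = 1.58e-05). Gla, alpha-galactosidase, was measured at 182, 208 and 201 CPM in EV and 72.3, 92.2 and 92.6 CPM in EVsub (-1.20, SE 0.18, adjusted p = 8.9e-05). The other falls were smaller. Ctsd, cathepsin D, stood at 1040, 1180 and 1170 CPM in EV and 593, 711 and 727 CPM in EVsub (-0.74, SE 0.19, adjusted p = 0.00877) and narrowly missed the call without EVsub replicate 1 (adjusted p = 0.0506), and Lamp1, the abundant membrane protein of the organelle, was not called (-0.30, adjusted p = 0.2). CACGTG, the core of the element through which TFEB and TFE3 bind lysosomal promoters and also of other E-boxes, was found in 10 of the 24 members with a window (41.7%), against 7.15% of all windows and 11.5% of tested genes. Over tested genes called higher, lower and not called its shares were 10.1%, 13.1% and 11.6%. The windows of Ctsd (chr7:142387808-142387987, minus strand), which was called, and Lamp1 (chr8:13159001-13159180, plus strand), which was not, hold it 1 and 4 times, in capitals.
Ctsd: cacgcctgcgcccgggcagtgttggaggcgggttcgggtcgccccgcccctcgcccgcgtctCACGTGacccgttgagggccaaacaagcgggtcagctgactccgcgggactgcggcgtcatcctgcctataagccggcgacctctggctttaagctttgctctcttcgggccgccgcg
Lamp1: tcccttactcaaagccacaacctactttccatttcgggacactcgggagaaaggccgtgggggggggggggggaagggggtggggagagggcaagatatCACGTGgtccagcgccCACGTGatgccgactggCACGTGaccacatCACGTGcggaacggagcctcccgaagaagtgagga

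Most innate immune transcripts that changed were lower. Of 11 complement genes 6 fell (54.5%, against 9.59% of all tested genes) and 1 rose (9.09%, against 12.5%), with the same counts without EVsub replicate 3. C4b fell from 6.25, 9.12 and 7.83 CPM to 0.456, 0.819 and 1.14 CPM (log2 fold change -3.24, SE 0.26, adjusted p = 2.35e-07), and C3, the central component, from 41.8, 33.8 and 39.2 CPM to 2.32, 12 and 10.1 CPM (-2.22, SE 0.41, adjusted p = 0.000569). Both fell without overlap. On the interferon list 6 of 28 genes fell (21.4%, against 9.59% of all tested genes) and none rose. The falls numbered 10 without EVsub replicate 3, 2 without EVsub replicate 1 and 3 without EV replicate 3. Among the 6 were the guanylate-binding proteins Gbp7 (-1.85, adjusted p = 0.00586) and Gbp3 (-1.30, adjusted p = 0.00322). Isg15 was not called (-0.14, adjusted p = 0.796).

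The list of chemokines and cytokines held 6 rises and 4 falls among 21, unchanged in number without EVsub replicate 3. There were 3 rises without EV replicate 1 and 2 when the 2 groups alone were fitted. The shares in the main fit were 28.6% and 19.0%, against 12.5% and 9.59% of all tested genes. Its rises include the cyclooxygenase gene Ptgs2, and Grem1, which is also on the TGF-beta and BMP list. Cxcl12, the stromal ligand of CXCR4, was measured at 775, 1130 and 906 CPM in EV and 153, 242 and 391 CPM in EVsub (log2 fold change -1.83, SE 0.29, adjusted p = 0.000126), and Ccl8 fell by 3.37 (adjusted p = 1.27e-05). Cxcl1, a neutrophil attractant, rose from 0.507, 0.430 and 0.0442 CPM to 4.55, 3.60 and 1.82 CPM (3.32, SE 0.46, adjusted p = 4.05e-05). Ptgs2 rose from 4.39, 15.2 and 4.69 CPM to 88.7, 30.6 and 29.2 CPM (2.62, SE 0.43, adjusted p = 0.000193). Il6 was measured below 1 CPM in all 6 libraries and was not called (0.67, adjusted p = 0.554).

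The remaining signalling lists were mixed. Of 28 TGF-beta and BMP genes 6 rose and 9 fell (7 and 9 without EVsub replicate 3, with 2 rises without EVsub replicate 1 or EVsub replicate 2 and 3 without EV replicate 2, and with no rise and 5 falls when the 2 groups alone were fitted). Both receptors of the TGF-beta ligands fell, Tgfbr1 from 68.3, 70.6 and 80.6 CPM to 34.4, 34.3 and 34.0 CPM (log2 fold change -1.10, SE 0.23, adjusted p = 0.00144) and Tgfbr2 by 0.92 (adjusted p = 0.000287). Inhba, the activin A subunit, rose from 0.675, 3.58 and 1.06 CPM to 11.1, 4.70 and 5.33 CPM (2.00, SE 0.46, adjusted p = 0.0032), a call lost when the 2 groups alone were fitted (adjusted p up to 0.0559). Of 22 Wnt genes 4 fell (18.2%, against 9.59% of all tested genes) and 1 rose (4.55%, against 12.5%). The counts were 5 and 0 without EVsub replicate 3, with 2 rises without EVsub replicate 2 and none without EV replicate 1 or EVsub replicate 1. Axin2, the feedback inhibitor and usual readout of beta-catenin, was at 1.52, 2.29 and 1.99 CPM in EV and 0.456, 0.285 and 0.423 CPM in EVsub (-2.32, SE 0.32, adjusted p = 4.15e-05). Sfrp1, a secreted Wnt antagonist, fell by 1.44 (adjusted p = 0.000413). Notch genes had 2 rises among 13 (15.4%, near the 12.5% of all tested genes) and no fall. The counts were 3 and 1 without EVsub replicate 3, 1 rise without EV replicate 3 or EVsub replicate 1, no rise and 1 fall without EV replicate 2, no rise and 2 falls without EVsub replicate 2, and none of either with the 2 groups alone. Notch1 was not called (-0.66, adjusted p = 0.369).

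Adipogenic genes had 2 rises and 3 falls among 17, with the same counts without EVsub replicate 3 and 1 rise without EV replicate 1, EV replicate 3 or EVsub replicate 2. As shares these were 11.8% and 17.6%, against 12.5% and 9.59% of all tested genes. Lpl, lipoprotein lipase, was measured at 173, 848 and 251 CPM in EV and 55.6, 77.9 and 136 CPM in EVsub (log2 fold change -2.24, SE 0.40, adjusted p = 0.000429). EV replicate 2 held far more of it than the other EV libraries. Ebf1, an early factor of the lineage, fell by 1.09 (adjusted p = 0.000129) and Angptl4 rose by 1.73 (adjusted p = 0.000199). Pparg, its master regulator, stayed under 1 CPM in all 6 libraries.

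EVsub replicate 3 stood nearer to EV than the other EVsub libraries did. Among the 2109 genes called higher without it, its level lay at a median of 44.6% of the distance from EV to the mean of the other EVsub libraries (quartiles 24.9% to 66.4%), and among the 1559 called lower at a median of 56.6% (36.5% to 76.0%). Genes chosen without a library can fall short of 100% in it through that choice alone, so the same was computed for the others, each against a mean that includes EVsub replicate 3. For EVsub replicate 1 the medians were 101.4% over 1286 genes called higher and 120.3% over 851 called lower without it. For EVsub replicate 2 they were 128.6% over 1086 and 90.2% over 1012 genes. These are descriptions, with no test. EVsub replicate 3 lay on the other side of EV in 6.88% of the 2109 genes called higher without it and in 4.17% of the 1559 called lower without it. The distance was not the same for all lists. Over the members called without EVsub replicate 3, it was 19.7% for ribosome biogenesis (20 genes), 28.6% for DNA replication (42) and 41.3% for mitosis (50). For lysosomal genes it was 61.4% (21 genes), for amino acid and ATF4 genes 62.0% (15) and for complement 76.8% (7). In this library the proliferation genes thus stood nearer to EV than those last lists did. Other lists also stood near EV, with 23.4% for Notch (4 genes), 40.7% for interferon (10) and 43.9% for growth arrest (17). Over all genes called without this library the median was 49.9%. These percentages are descriptions of 1 library, and their differences were not tested. Beside EV replicate 2, EVsub replicate 3 had the higher level in 44 of 50 mitotic genes (88.0%), 23 of 43 DNA replication genes (53.5%), 10 of 24 ribosome biogenesis genes (41.7%) and 1 of 30 lysosomal genes (3.33%), against 51.5% of all tested genes.

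The CAMTA1 cells, with 3 libraries that carry full-length CAMTA1 and were also collected at sub-confluence, and the confluent TAZ4SA and YAP5SA cells, with 3 libraries each that carry hyperactive mutants of TAZ and YAP, are set beside EVsub below. All 4 comparisons share the EV libraries, so likeness among them is not independent. Over all genes 16.6% were higher and 16.1% lower in CAMTA1, 31.1% and 26.4% in TAZ4SA, and 36.3% and 34.9% in YAP5SA. All 50 mitotic genes were called higher in CAMTA1 (median log2 fold change 1.91), 21 in TAZ4SA (0.69) and 20 in YAP5SA (0.49). For DNA replication the medians were 0.99 in EVsub, 0.87 in CAMTA1, -0.05 in TAZ4SA and -0.14 in YAP5SA, with 36 members higher in CAMTA1, 7 higher and 7 lower in TAZ4SA, and 11 higher and 10 lower in YAP5SA. The YAP and TAZ targets had medians of 0.20, 0.30, 0.65 and 0.99 in the same order. Whether any of these differences between groups exceeds the error was not tested.

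**Figure D5:**
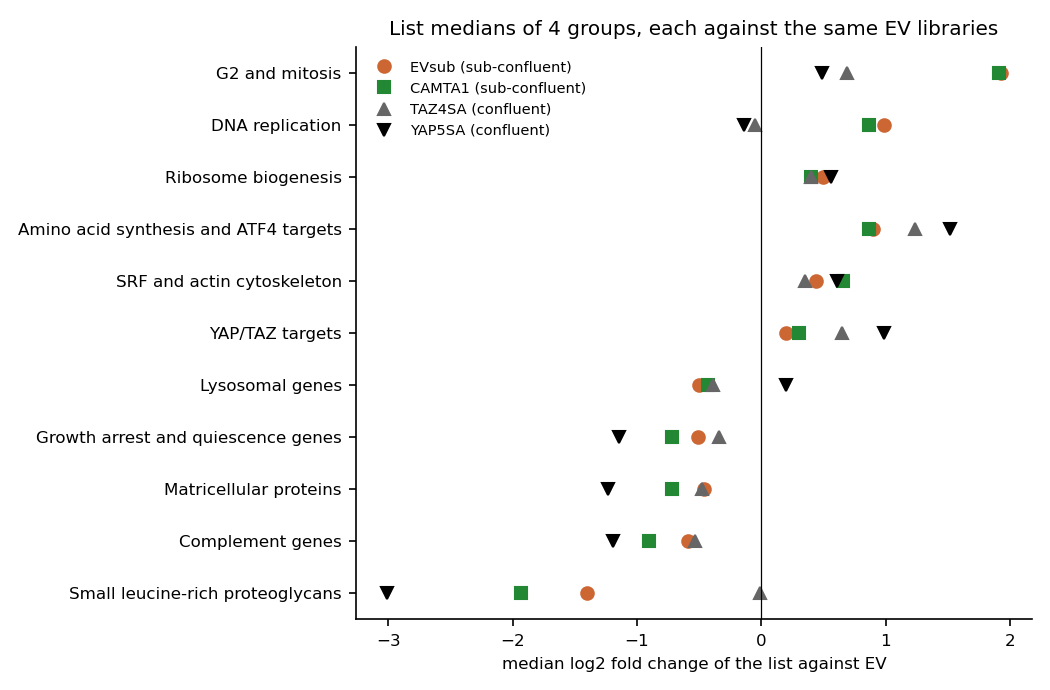
Median log2 fold change against EV over the members of 11 gene lists (horizontal axis) in EVsub, CAMTA1, TAZ4SA and YAP5SA, each group of 3 libraries set against the same 3 EV libraries. EVsub and CAMTA1 lie close together for mitosis (1.93 and 1.91) and DNA replication (0.99 and 0.87), while TAZ4SA and YAP5SA lie near 0 for DNA replication.

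Single genes showed both patterns. Ccn2 was higher than in EV by 2.56 on the log2 scale in EVsub, 3.73 in CAMTA1, 3.96 in TAZ4SA and 4.24 in YAP5SA. For Gadd45a the values were -2.35 in EVsub, -2.18 in CAMTA1, 1.07 in TAZ4SA and 1.10 in YAP5SA, so that the sign of this listed target in the sub-confluent groups was opposite to that in the confluent mutants. Acta2 was at 1.55, 1.98, -0.30 and -0.77 in the same order, and Tk1 at 2.23, 2.21, -0.62 and -1.05. Dcn was lower in all of them, at -3.20, -4.50, -2.55 and -5.49. The lysosomal list had a median of -0.50 in EVsub, -0.43 in CAMTA1, -0.39 in TAZ4SA and 0.20 in YAP5SA.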

How the data were processed

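The authors deposited raw counts, whole reads per Ensembl gene without normalization, for 24 libraries of polyadenylated RNA. Per the study's methods and the submitters' processing notes the reads were processed with bcbio-nextgen 1.0.8 on mm10 with Ensembl release 97. The program that counted them and its use of strand are not given in the sources used here, so overlapping genes and paralogs may share reads. Symbols and positions came from GENCODE M21 (GRCm38), which matched 37693 of 39017 identifiers. Promoter windows came from RefSeq.

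Group differences were tested with edgeR 4.0.16 (R 4.3.3): TMM normalization, all 24 libraries in 1 fit with a coefficient per group, quasi-likelihood F test, Benjamini-Hochberg adjustment over the 14361 genes that averaged 5 counts or more, calls at an adjusted p under 0.05. CPM values are TMM-scaled. Distances and medians per library used log2 of CPM plus 0.1. On simulated counts with 200 changed genes among 14361, the fit recovered 67.5% at a log2 change of 1, with 6 false calls, and 93.0% at 2, with 14. The simulated counts had the same spread for a gene in all groups and no library that stood apart. They therefore do not measure the error under the unequal EVsub libraries. Depths were 19981310 to 28020955 counts, and precision at other depths was not examined.

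The 30 gene lists were drawn up by hand. The groups, genes and lists were chosen with earlier results of these data known, so no test over a list was made. Named genes were the 12 largest rises and falls among called genes that averaged 50 counts or more with separate libraries, the anchors of each list, and the 3 largest called changes per list and direction. Cdc20, Cdc6, Kif23 and Ube2c were picked after their values were seen, and Smc2 and Smc4 complete a count. The alternatives were DESeq2 1.42.0, its size factors, no filter, at least 10 counts in every library, a replicate block, only EV and EVsub in the fit, a log2 change of at least 1, and each library left out in turn. Some genes are not reported here.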

Additional observations from a re-analysis of the deposited data

How the results depend on the processing

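No gene changed direction while called under any alternative, among genes called in both fits. DESeq2 (1843 higher, 1643 lower), its size factors (1687 and 1503), no filter over 24737 genes (1714 and 1217) and at least 10 counts in every library over 11461 genes (1557 and 1401) stayed within 1.5 times the 1796 higher and 1377 lower genes. Fitting only EV and EVsub gave 1683 calls, 889 higher and 794 lower. That fit has fewer degrees of freedom by construction and also takes the spread from these groups alone. Which of these lowered the number of calls was not tested. A log2 change of at least 1 left 961, 580 higher and 381 lower. With each library left out in turn the calls ranged from 1971 to 3668, the higher from 1086 to 2109 and the lower from 851 to 1559. The libraries whose removal moved a count by over 1.5 times were EV replicate 1 (1159 higher), EV replicate 3 (1092 higher, 879 lower), EVsub replicate 1 (851 lower) and EVsub replicate 2 (1086 higher). Col15a1, not called at 0.59, ranged from -2.23 without EVsub replicate 2 (adjusted p = 0.0255) to 1.09 without EVsub replicate 1. Its highest level was in EVsub replicate 2. Of 169 named genes that were called, 110 were called under every alternative and 40 lost the call when only EV and EVsub were fitted.

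No label ties a replicate number to a shared day or culture. The deviations of same-numbered libraries correlated at -0.268, -0.041 and 0.132. Whether the samples are paired cannot be told from these values, since deviations from the mean of 3 libraries constrain one another. The main fit treated the samples as unpaired. With the replicate block the calls were 3016 (1713 higher, 1303 lower), and with the replicate block and only EV and EVsub in the fit, an alternative chosen after seeing the data, 1617 (882 and 735). Not every library correlated best with its own number.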
